A study of Mus musculus with 3 samples.

Results

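The mitochondrial respiratory chain was examined in mouse CD4+CD25- T cells through the messenger RNAs of its nuclear-encoded subunits and related proteins. Members were all genes whose symbol begins with Nduf, Uqcr or Atp5, or with Cox4 to Cox8, together with Sdha, Sdhb, Sdhc, Sdhd, Cycs and Cyc1. Probe sets that name several genes were left out, and a gene was read through its brightest probe set, the one with the highest mean over the arrays. This gave 92 genes of 18193 named genes on the array, with 184 probe sets, on 19 chromosomes. Complex I held 44 of them, complex II 4, complex III 9, complex IV 17 and complex V 17, and the last was Cycs, cytochrome c. This grouping followed the symbol alone. Every Nduf gene, Ndufa4 and Ndufa4l2 included, was put with complex I whichever complex its protein joins. The symbol rule also took in 9 genes that are not subunits, the complex I assembly factors Ndufaf1 to Ndufaf8 and Cox7a2l, which joins complexes III and IV into supercomplexes.

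The study stimulated CD4+CD25- T cells taken from lymph nodes and spleens of Stat6/T-bet double knockout mice, which were females on the BALB/c background and 6 to 8 weeks old. Cells in all 3 groups carried both deletions and received plate-bound anti-CD3 at 5 µg/ml with anti-CD28 at 1 µg/ml for 2 days. They differed in cytokine: IL-6 together with TGFβ, IL-6 together with IL-23, or TGFβ alone, where IL-6 and IL-23 were each added to 10 ng/ml and TGFβ to 5 ng/ml. Each group was 1 array of labelled RNA. Whether the RNA of an array came from 1 mouse or from pooled mice was not stated, and neither wild-type cells nor cells without added cytokine were among the arrays.

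The respiratory chain lies in the inner mitochondrial membrane. Complex I takes electrons from NADH and complex II from succinate, coenzyme Q carries them to complex III, cytochrome c carries them on to complex IV, and complex IV passes them to oxygen. Complexes I, III and IV pump protons, and complex V, the ATP synthase, makes ATP as protons flow back. Some subunits are encoded by mitochondrial DNA and all others by the nucleus, where the transcription factors NRF1, GABPA and YY1 are known to act on many of these genes. T cells that have been activated take up more glucose and also use respiration as they grow and divide.

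Promoters are shown because some in each of the 5 complexes hold motifs of these regulators, a feature that the choice of members did not use. RefSeq promoters of build GRCm38.p6, each 250 bases before to 50 bases after a gene's start, were at hand for 75 of the 92 members, 80 promoters in all. Both strands were searched for the NRF1 motif of 10 letters, whose letters are the capitals of the Ndufs5 stretch below with any base allowed at the sixth, for CCGGAAG of the ETS family that includes GABPA, and for ATGGCGGC of YY1. The following stretches are the 150 bases before the start of 1 member of each complex and of Cox7a1, the heart and muscle isoform of a complex IV subunit, which held no match. Each is written 5′ to 3′ along the gene's strand, and capitals mark the motif matches on either strand. The stretches lie at chr4:123718187-123718336 for Ndufs5, chr13:74350241-74350390 for Sdha, chr10:80406822-80406971 for Uqcr11, chr5:115348959-115349108 for Cox6a1 and chr11:115419920-115420069 for Atp5h, all on the minus strand, and at chr7:30184021-30184170 for Cox7a1 on the plus strand.
Ndufs5: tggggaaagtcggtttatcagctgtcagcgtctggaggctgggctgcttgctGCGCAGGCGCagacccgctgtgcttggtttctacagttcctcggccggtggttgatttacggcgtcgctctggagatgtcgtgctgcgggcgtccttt
Sdha: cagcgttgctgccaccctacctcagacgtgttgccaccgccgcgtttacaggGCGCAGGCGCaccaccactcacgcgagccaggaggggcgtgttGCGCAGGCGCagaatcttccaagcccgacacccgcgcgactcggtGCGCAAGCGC
Uqcr11: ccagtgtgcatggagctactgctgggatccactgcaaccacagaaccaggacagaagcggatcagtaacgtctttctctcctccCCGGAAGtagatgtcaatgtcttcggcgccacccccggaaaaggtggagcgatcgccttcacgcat
Cox6a1: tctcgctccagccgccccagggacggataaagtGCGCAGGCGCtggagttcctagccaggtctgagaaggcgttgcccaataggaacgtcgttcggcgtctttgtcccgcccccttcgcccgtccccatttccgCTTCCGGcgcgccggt
Atp5h: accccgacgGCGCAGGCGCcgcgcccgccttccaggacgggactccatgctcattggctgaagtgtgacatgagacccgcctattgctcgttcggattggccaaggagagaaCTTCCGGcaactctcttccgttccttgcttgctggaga
Cox7a1: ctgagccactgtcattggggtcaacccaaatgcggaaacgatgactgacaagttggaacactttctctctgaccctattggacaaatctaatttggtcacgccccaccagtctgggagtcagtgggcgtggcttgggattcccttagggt

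The NRF1 motif stood in 18 of the 80 member promoters (22.5%), against 4.60% of all 32851 promoters in the table, 11.2% of the promoters of named genes above the floor described below, and 14.4% of those of bright genes, with a mean log2 level of at least 10. The ETS motif stood in 19 member promoters (23.8%), against 8.86%, 19.9% and 23.6% of the same 3 sets, so its share in members was close to that of bright genes. The YY1 motif stood in 7 (8.75%), against 2.24%, 5.25% and 5.77%. All 7 were promoters of complex I genes, both promoters of Ndufa7 among them. At least 1 of the motifs stood in 39 member promoters (48.8%), against 14.1%, 32.1% and 38.1% of the same 3 sets. More than 1 kind stood in 5, which was not counted in the other sets. No matches of different motifs overlapped. Complex V held the NRF1 motif in 6 of 18 promoters and complex II in 2 of 3, whereas complex IV held it in 1 of 12. None of the 4 promoters at hand of tissue-restricted isoforms held any of the 3 motifs, but most promoters in the table held none either. A match is a description of the letters, and no match says only that these letters were not in the window.

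Intensities were quantile normalized over the 3 arrays, and all levels below are normalized intensities of the brightest probe set on a linear scale, unless another is named. Which array is said to be highest for a gene therefore rests on this normalization. A floor of 58.8 was set from probe sets of genes restricted to other tissues, and a gene was called measured in a comparison when it exceeded the floor on at least 1 of the 2 arrays. A value below the floor was raised to it before a ratio was taken. Differences are log2 ratios, and the count of higher or lower genes was taken at 2-fold. With 1 array per group there is no replicate error and no test: every ratio describes a pair of arrays, not a condition. The 3 comparisons reuse the same 3 arrays and are not independent of each other. In RNA of bulk cells, fewer cells of a type and less RNA per cell cannot be told apart.

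Before normalization the median deposited intensity was 28.1 with IL-6/TGFβ, 17.8 with IL-6/IL-23 and 35.8 with TGFβ alone. Il17a, a cytokine of T helper 17 cells, read 3211 with IL-6/TGFβ, 3273 with IL-6/IL-23 and 498 with TGFβ alone, and Il10 read 1012 with IL-6/TGFβ, 240 with IL-6/IL-23 and 62.8 with TGFβ alone. Stat6 read 223 with IL-6/TGFβ, 191 with IL-6/IL-23 and 259 with TGFβ alone, and Tbx21, which encodes T-bet, 118 with IL-6/TGFβ, 205 with IL-6/IL-23 and 190 with TGFβ alone. Both deleted genes were above the floor, and which exons the deletions remove was not given in the sources used here, so these readings do not check the genotype. Of 11 T cell markers, 10 were above the floor with IL-6/TGFβ and 11 on each of the other arrays, Cd4 and Cd3e among them, and their summed level was 31757 with IL-6/TGFβ, 36868 with IL-6/IL-23 and 31012 with TGFβ alone. All 5 B cell and all 3 erythroid markers were below the floor on every array, as were Itgam, Lyz2 and 4 others of 8 myeloid markers. Summed levels of the myeloid markers were 212 with IL-6/TGFβ, 186 with IL-6/IL-23 and 318 with TGFβ alone, and those of 5 CD8 T cell and NK cell markers, of which Ncr1 and Klrd1 were below the floor throughout, were 245 with IL-6/TGFβ, 387 with IL-6/IL-23 and 413 with TGFβ alone. Above the floor were 1, 0 and 2 of the myeloid markers and 2, 3 and 3 of the others, in the same order of arrays. The sums take in the values below the floor, so they do not measure how many such cells were present. The part of other cell types in the results was not tested.

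Most members were bright, and their levels were similar on the 3 arrays. Of 92 members, 84 exceeded the floor on all 3 arrays and 75 had a mean log2 level of at least 10. No measured member had a ratio of 2-fold between any pair of arrays, with values below the floor raised to it, which leaves only a lower bound for Cox7a1. Between the IL-6/TGFβ and TGFβ arrays 0 of 85 measured members were higher and 0 lower, against 2.78% of all 9078 measured genes higher and 2.1% lower. Between the IL-6/TGFβ and IL-6/IL-23 arrays the counts were again 0 and 0 of 85, against 3.88% and 3.41% of 9230 genes. Between the IL-6/IL-23 and TGFβ arrays they were 0 and 0 of 84, against 3.53% and 3.37% of 9149 genes. Bright genes vary less on arrays than dim ones, and among the 2051 named genes with a mean log2 level of at least 10 the share past 2-fold in either direction was 2.24%, 3.8% and 3.66% in the same order of comparisons.

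**Figure D1:**
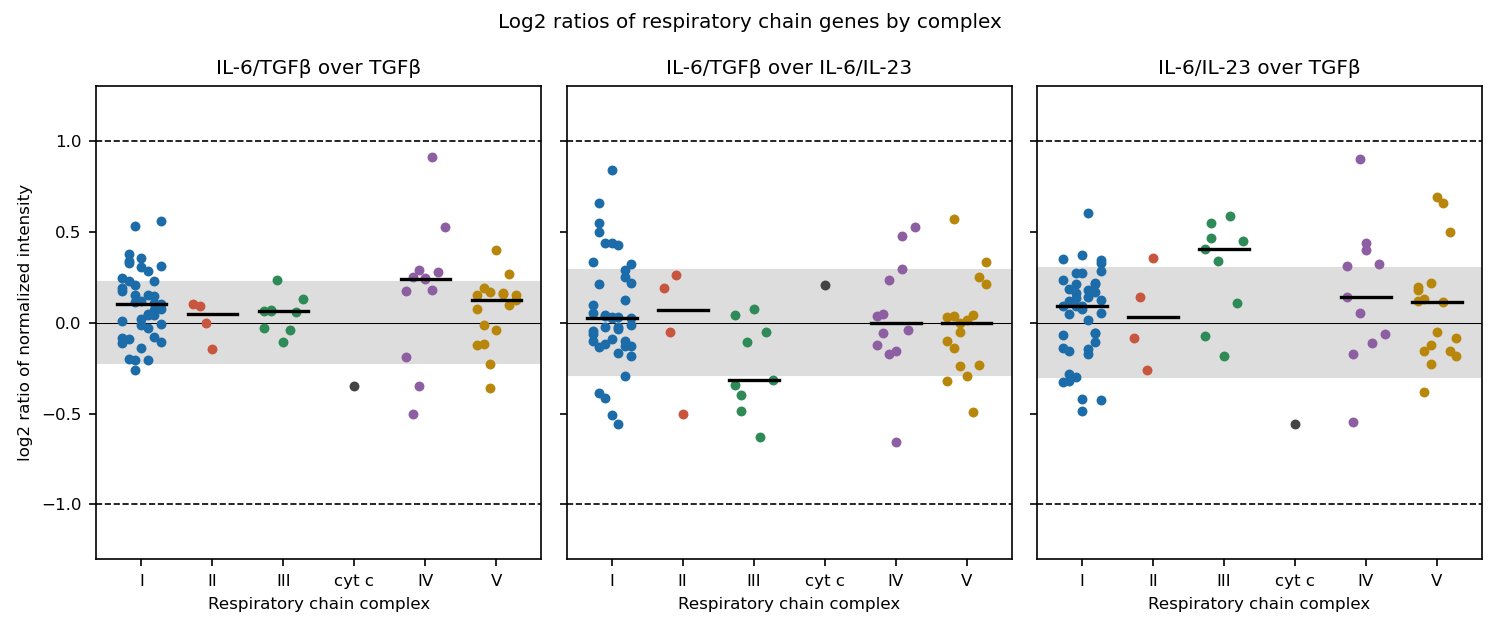
Log2 ratios of each measured member by complex, in each of the 3 comparisons, with 1 point per gene, a bar at the median of the complex and a grey band of 1 spread between probe sets. All points lie between the lines at 2-fold, from -0.50 to 0.91 for IL-6/TGFβ versus TGFβ, from -0.66 to 0.84 for IL-6/TGFβ versus IL-6/IL-23 and from -0.56 to 0.90 for IL-6/IL-23 versus TGFβ.

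The median log2 ratio of the members was 0.10 for IL-6/TGFβ versus TGFβ, against 0.02 over all measured genes. It was -0.01 for IL-6/TGFβ versus IL-6/IL-23, against -0.04, and 0.11 for IL-6/IL-23 versus TGFβ, against 0.06. These medians rest on the scaling: the members' medians were 0.00, -0.33 and 0.32 when the arrays were scaled to a common median, and -0.35, 0.32 and -0.69 with no scaling at all. Over all genes the medians then were -0.08, -0.20 and 0.12 with median scaling, and -0.42, 0.42 and -0.83 with none. No direction for the chain as a whole is therefore given. The members' log2 ratios had an SD of 0.22, 0.30 and 0.29 over genes in the same order of comparisons, against 0.50, 0.61 and 0.59 over all measured genes and 0.40, 0.48 and 0.49 over the bright genes. A few extreme genes weigh heavily in a plain SD. Estimated from the median absolute deviation it was 0.20, 0.24 and 0.31 for members. It was then 0.33, 0.42 and 0.40 for all genes and 0.27, 0.34 and 0.35 for bright genes, so the members lay closer to the bright genes.

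The same was seen across all 3 arrays at once. The ratio of a member's highest to its lowest array had a median of 1.23, and 76 of 84 members (90.5%) stayed within 1.5-fold. Over all 8260 named genes above the floor on every array the median was 1.33 and 69.0% stayed within 1.5-fold. Over the bright genes alone the median was 1.22 for 75 members, of which 92.0% stayed within 1.5-fold, against 1.28 and 78.3% for 2051 genes. Cox8c had the largest ratio among members at 1.88, and Cox8a, at 1.87, the largest among bright members. After quantile normalization, 30 of the 84 members were highest with IL-6/TGFβ, 38 with IL-6/IL-23 and 16 with TGFβ alone. These counts rest on the scaling, as the medians above do, and give no direction for the chain. With no scaling the members' median was -0.69 for IL-6/IL-23 versus TGFβ. The same count over all genes was not made.

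**Figure D2:**
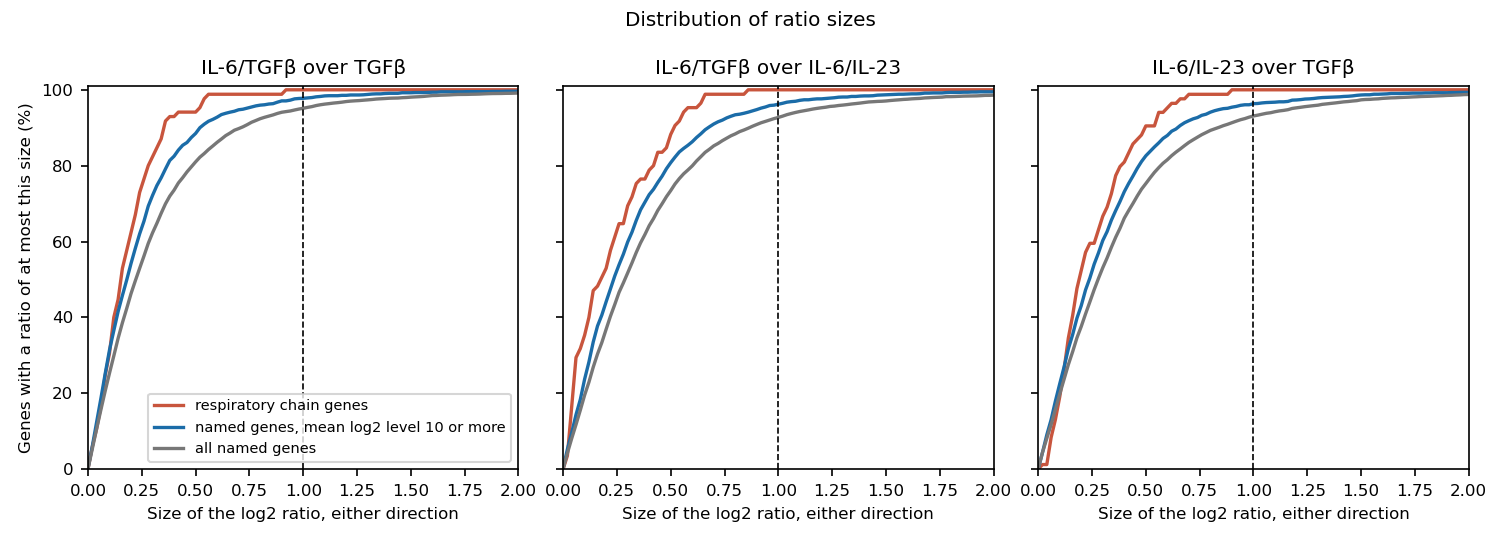
Cumulative share of genes by the size of the log2 ratio, in each of the 3 comparisons, for the members, for genes with a mean log2 level of at least 10 and for all measured genes. The members' curve runs above both others except at the smallest ratios, and no measured member passes the line at 2-fold.

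The chip offers a measure of error in genes with more than 1 probe set. The ratios of the brightest and second brightest probe set of the same gene were compared. Their spread is the SD of 1 probe set, estimated from the median absolute deviation of the differences. It was 0.22 on the log2 scale for IL-6/TGFβ versus TGFβ (3690 genes) and 0.29 for IL-6/TGFβ versus IL-6/IL-23 (3672 such genes). For IL-6/IL-23 versus TGFβ it was 0.30 (3651 such genes). This spread covers the probes and not the cells, the RNA or the array. Of the measured members, 57 of 85 (67.1%), 56 of 85 (65.9%) and 56 of 84 (66.7%) lay within 1 spread of 0 in the same order, against 50.3%, 50.5% and 53.2% of all genes and 58.7%, 58.6% and 60.3% of bright genes. Beyond 2 spreads lay 5 members (5.88%), 4 members (4.71%) and 3 members (3.57%), against 22.5%, 21.1% and 18.2% of all genes and 14.2%, 14.6% and 11.8% of bright genes. These were Cox8c, Ndufv3, Ndufb11, Cox7a1 and Cox5a for IL-6/TGFβ versus TGFβ, then Ndufs8, Ndufb10, Cox8a and Uqcrc1 for IL-6/TGFβ versus IL-6/IL-23, and Cox8a, Atp5d and Atp5k for IL-6/IL-23 versus TGFβ. Of them Cox7a1 exceeded the floor only with IL-6/TGFβ, so the sign of its ratio was set by that rule. Among 43 members with at least 2 probe sets above the floor, both probe sets had ratios of the same sign in 31 for IL-6/TGFβ versus TGFβ, in 25 for IL-6/TGFβ versus IL-6/IL-23 and in 23 for IL-6/IL-23 versus TGFβ. The members' own probe sets had a spread of 0.12, 0.20 and 0.26 by the same estimate, and 34 of 85, 45 of 85 and 50 of 84 members lay within that. The plain SD, which gives large differences more weight, was 0.16, 0.31 and 0.36 for members and 0.25, 0.32 and 0.34 for all genes. By that measure the members' probe sets were further apart than those of all genes in the last comparison.

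**Figure D3:**
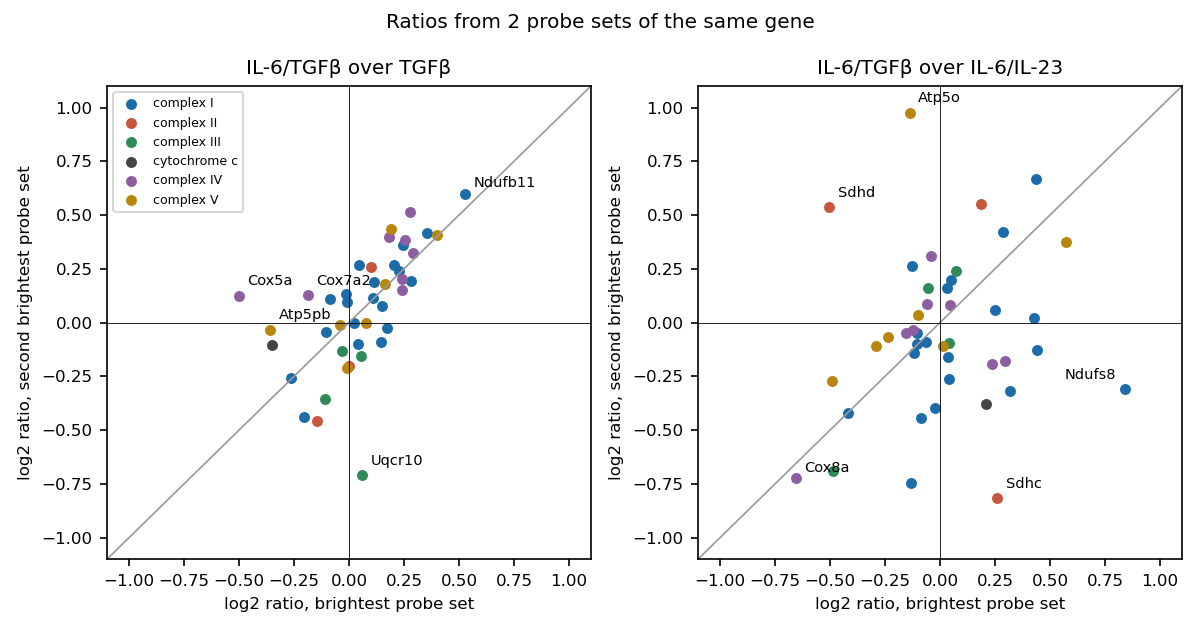
Log2 ratio of the second brightest against that of the brightest probe set for the 43 members with at least 2 probe sets above the floor, for IL-6/TGFβ against each of the other arrays, with a line where both are equal and colours by complex. Ndufb11 (left) and Cox8a (right) lie near the line, while Uqcr10 (left) and Ndufs8 (right) lie far from it, with differences of 0.77 and 1.15 between their probe sets.

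Complex I, the NADH dehydrogenase, had 42 measured members with median log2 ratios of 0.10 for IL-6/TGFβ versus TGFβ, 0.02 for IL-6/TGFβ versus IL-6/IL-23 and 0.09 for IL-6/IL-23 versus TGFβ. Ndufb11, an accessory subunit of the membrane arm, read 4967 with IL-6/TGFβ, 3672 with IL-6/IL-23 and 3444 with TGFβ alone. It was highest with IL-6/TGFβ, and the log2 ratio versus TGFβ was 0.53 on the brightest probe set and 0.53 to 0.69 over its 3 probe sets. Versus IL-6/IL-23 the 3 probe sets gave 0.27 to 0.67. Ndufv3, an accessory subunit of the NADH-binding arm, read 2898 with IL-6/TGFβ, 2497 with IL-6/IL-23 and 1968 with TGFβ alone, a log2 ratio of 0.56 for IL-6/TGFβ versus TGFβ on its only probe set. Ndufb10, another accessory subunit of the membrane arm, read 2103 with IL-6/TGFβ, 1333 with IL-6/IL-23 and 1619 with TGFβ alone, and its log2 ratio was 0.38 versus TGFβ and 0.66 versus IL-6/IL-23, also on 1 probe set. All 3 genes were highest with IL-6/TGFβ.

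Ndufs8, a core subunit that holds iron-sulphur clusters, read 4137 with IL-6/TGFβ, 2311 with IL-6/IL-23 and 3233 with TGFβ alone, the largest log2 ratio of any member for IL-6/TGFβ versus IL-6/IL-23 at 0.84. That value was not shared by its other probe sets: the 6 probe sets above the floor gave -0.31 to 0.84. Ndufs5, an accessory subunit, read 2464 with IL-6/TGFβ, 1689 with IL-6/IL-23 and 2106 with TGFβ alone, with a log2 ratio of 0.55 for IL-6/TGFβ versus IL-6/IL-23, and its promoter is the NRF1 motif example above. At the low end for IL-6/TGFβ versus TGFβ stood Ndufa12 with -0.26, Ndufa2 with -0.21 and Ndufaf4 with -0.20. Among core subunits that carry electrons, Ndufv1, which binds NADH, read 2170 with IL-6/TGFβ, 1616 with IL-6/IL-23 and 1785 with TGFβ alone, and Ndufs1, the largest subunit, read 1349 with IL-6/TGFβ, 1238 with IL-6/IL-23 and 1287 with TGFβ alone. Ndufs7, which carries the last iron-sulphur cluster before coenzyme Q, read 1807 with IL-6/TGFβ, 1756 with IL-6/IL-23 and 1569 with TGFβ alone. Ndufv1 gave a log2 ratio of 0.43 for IL-6/TGFβ versus IL-6/IL-23 on this probe set, and 0.10 and 0.02 on its others, while those of Ndufs7 gave 0.04 and -0.26.

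The 8 complex I assembly factors help to build the enzyme and are not part of it. Their median log2 ratio was -0.00 for IL-6/TGFβ versus TGFβ, -0.21 for IL-6/TGFβ versus IL-6/IL-23 and 0.21 for IL-6/IL-23 versus TGFβ. Ndufaf6 read 375 with IL-6/TGFβ, 552 with IL-6/IL-23 and 364 with TGFβ alone, Ndufaf5 179 with IL-6/TGFβ, 256 with IL-6/IL-23 and 198 with TGFβ alone and Ndufaf4 1260 with IL-6/TGFβ, 1682 with IL-6/IL-23 and 1451 with TGFβ alone. These had the 3 lowest log2 ratios of the complex I group for IL-6/TGFβ versus IL-6/IL-23, at -0.56, -0.51 and -0.42, and each was highest with IL-6/IL-23.

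Complex II, succinate dehydrogenase, is also an enzyme of the citric acid cycle, and all of its 4 subunits are nuclear-encoded. Sdha, the flavoprotein, read 2366 with IL-6/TGFβ, 2078 with IL-6/IL-23 and 2205 with TGFβ alone, and Sdhb, the iron-sulphur protein, read 3786 with IL-6/TGFβ, 3920 with IL-6/IL-23 and 3553 with TGFβ alone. On these probe sets neither differed by more than 0.19 on the log2 scale between arrays, but another probe set of Sdha gave 0.55 for IL-6/TGFβ versus IL-6/IL-23. Of the membrane anchors, Sdhc read 1419 with IL-6/TGFβ, 1185 with IL-6/IL-23 and 1420 with TGFβ alone and Sdhd 1547 with IL-6/TGFβ, 2193 with IL-6/IL-23 and 1713 with TGFβ alone. For IL-6/TGFβ versus IL-6/IL-23 the probe sets of Sdhc gave 0.26 and -0.82 and those of Sdhd -0.50 and 0.54, so both anchors had probe sets of opposite sign.

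Complex III, the cytochrome bc1 complex, had a median log2 ratio of 0.06 for IL-6/TGFβ versus TGFβ, -0.32 for IL-6/TGFβ versus IL-6/IL-23 and 0.41 for IL-6/IL-23 versus TGFβ. For IL-6/TGFβ versus IL-6/IL-23, 7 of its 9 members were below 0, against 53.4% of all genes. For IL-6/IL-23 versus TGFβ 7 of 9 were above 0 and 2 below, against 43.9% of all genes below 0. With no scaling these medians were 0.05 and -0.39. Relative to the median of all genes, complex III lay at -0.40 to -0.24 and 0.29 to 0.49 under the 5 scalings. Those were quantile normalization, cyclic loess, a common median, hybridization controls and none. The last 3 shift each array by a constant, so among them this offset is nearly fixed by construction. Uqcrc1, a core protein facing the matrix, read 2728 with IL-6/TGFβ, 4214 with IL-6/IL-23 and 2807 with TGFβ alone, a log2 ratio of -0.63 for IL-6/TGFβ versus IL-6/IL-23 on its only probe set. Cyc1, cytochrome c1, read 4001 with IL-6/TGFβ, 5077 with IL-6/IL-23 and 3830 with TGFβ alone. Uqcrfs1, the Rieske iron-sulphur protein, read 3757 with IL-6/TGFβ, 4683 with IL-6/IL-23 and 3436 with TGFβ alone. After quantile normalization all 3 were highest with IL-6/IL-23, with the other arrays close together. The deposited intensity of each was highest with TGFβ alone.

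Of the small subunits, Uqcr10 read 2607 with IL-6/TGFβ, 3647 with IL-6/IL-23 and 2499 with TGFβ alone and Uqcrq 2556 with IL-6/TGFβ, 3369 with IL-6/IL-23 and 2440 with TGFβ alone, the same order. Uqcr11, another small subunit, read 2086 with IL-6/TGFβ, 2249 with IL-6/IL-23 and 1776 with TGFβ alone. Uqcrb, which lies near the coenzyme Q site, read 10304 with IL-6/TGFβ, 9785 with IL-6/IL-23 and 11101 with TGFβ alone, and Uqcrh, the hinge protein that meets cytochrome c1, 5484 with IL-6/TGFβ, 5326 with IL-6/IL-23 and 5608 with TGFβ alone. The core protein Uqcrc2 read 3864 with IL-6/TGFβ, 4007 with IL-6/IL-23 and 3718 with TGFβ alone. On these probe sets the last 3 were nearly level over the arrays. With the mean of all probe sets, for all 9 genes, the median of complex III for IL-6/TGFβ versus IL-6/IL-23 was -0.11 in place of -0.32, and 7 of 9 were again below 0. The median of complex I minus that of complex III was then 0.11 in place of 0.34. This mean also takes in probe sets below the floor. Of the 4 probe sets of Uqcrq, only 1 exceeded it on every array. How much of these changes came from probe sets below the floor was not tested. Settings that drop genes say less: 5 genes of complex III have a probe set not marked as detecting several transcripts, and their median was -0.11 both there and on their brightest probe sets. The 4 genes with a second probe set above the floor had 0.03 on it and -0.01 on the brightest. For IL-6/IL-23 versus TGFβ the median of complex III was 0.34 with the mean of all probe sets, in place of 0.41. There the same 4 genes had -0.18 on the second probe set and 0.02 on the brightest, so this median depends on the probe set.

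Cycs, the soluble carrier between complexes III and IV, read 10206 with IL-6/TGFβ, 8841 with IL-6/IL-23 and 13002 with TGFβ alone. On that probe set the log2 ratio was -0.35 for IL-6/TGFβ versus TGFβ and -0.56 for IL-6/IL-23 versus TGFβ. Its 3 probe sets gave -0.35 to -0.10 in the first of these and -0.56 to 0.27 in the second, so the TGFβ array was not the highest on all of them.

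**Figure D4:**
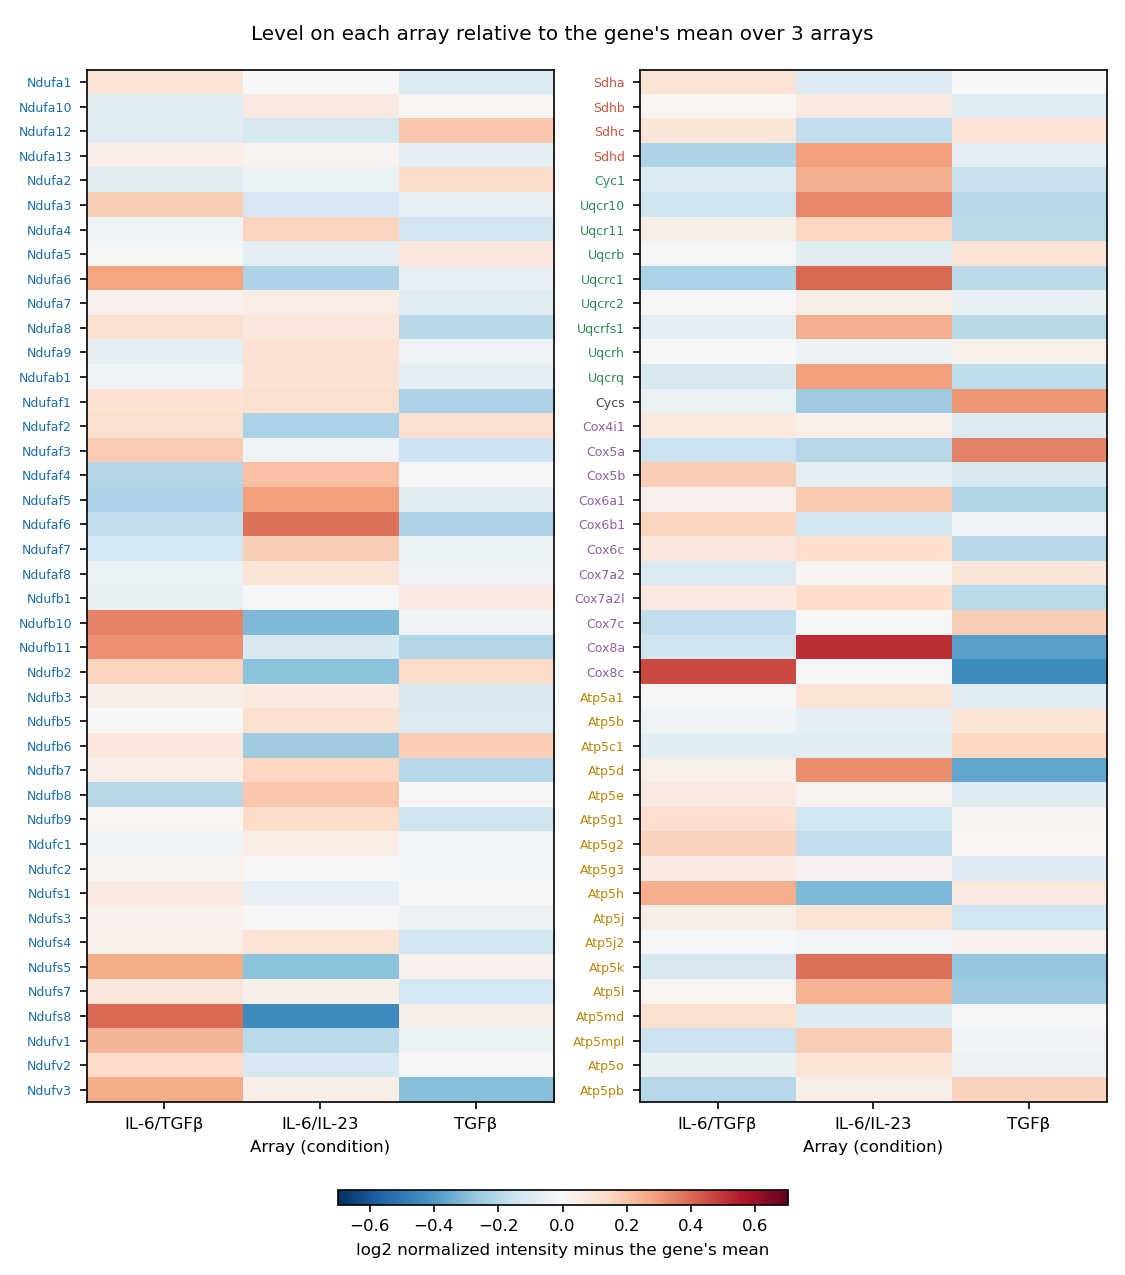
Level of each of the 84 members above the floor on every array, as the log2 normalized intensity minus the gene's mean over the 3 arrays, with gene names coloured by complex. Cox8a, Uqcrc1, Ndufaf6, Atp5k and Atp5d stand out as high on the IL-6/IL-23 array, Cox8c, Ndufs8, Ndufb10 and Ndufb11 on the IL-6/TGFβ array, and Cox5a and Cycs on the TGFβ array.

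Complex IV, cytochrome c oxidase, had 12 measured members for IL-6/TGFβ versus TGFβ with a median log2 ratio of 0.24, 12 for IL-6/TGFβ versus IL-6/IL-23 with -0.00, and 11 for IL-6/IL-23 versus TGFβ with 0.14. The first 2 medians include Cox7a1, which exceeded the floor only with IL-6/TGFβ, so its ratios could only be positive. Cox8a, the small subunit VIII found in most tissues, read 2885 with IL-6/TGFβ, 4548 with IL-6/IL-23 and 2438 with TGFβ alone. It was 1.87-fold higher with IL-6/IL-23 than with TGFβ, and its log2 ratio for IL-6/TGFβ versus IL-6/IL-23 was -0.66. Its 2 probe sets above the floor were close to each other, with -0.66 and -0.72 for IL-6/TGFβ versus IL-6/IL-23 and 0.90 and 0.87 for IL-6/IL-23 versus TGFβ.

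Cox4i1, a subunit at which ATP is known to inhibit the enzyme, read 7428 with IL-6/TGFβ, 7257 with IL-6/IL-23 and 6595 with TGFβ alone. Cox5a read 7935 with IL-6/TGFβ, 7687 with IL-6/IL-23 and 11229 with TGFβ alone, a log2 ratio of -0.50 for IL-6/TGFβ versus TGFβ. Its 3 probe sets gave -0.50, -0.33 and 0.13, so the lower level with IL-6/TGFβ was not found on all of them. Cox5b read 8419 with IL-6/TGFβ, 7153 with IL-6/IL-23 and 6888 with TGFβ alone, Cox6b1 8841 with IL-6/TGFβ, 7211 with IL-6/IL-23 and 7801 with TGFβ alone and Cox6c 6865 with IL-6/TGFβ, 7063 with IL-6/IL-23 and 5657 with TGFβ alone, with log2 ratios for IL-6/TGFβ versus TGFβ of 0.29, 0.18 and 0.28. Cox6a1, whose promoter is shown above, read 8972 with IL-6/TGFβ, 10003 with IL-6/IL-23 and 7602 with TGFβ alone, highest with IL-6/IL-23. Cox7a2, the form of subunit VIIa found in most tissues, read 10003 with IL-6/TGFβ, 10894 with IL-6/IL-23 and 11387 with TGFβ alone. Cox7c was dim on the probe sets used here, reading 72.2 with IL-6/TGFβ, 81.5 with IL-6/IL-23 and 91.8 with TGFβ alone.

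Several complex IV subunits have a second gene that is used in particular tissues, and most of these read low. Cox4i2 (lung), Cox6a2 and Cox8b (heart and muscle), and Cox6b2 and Cox7b2 (testis) were below the floor on all 3 arrays. Cox7a1, the heart and muscle form of subunit VIIa, read 84.5 with IL-6/TGFβ, 28.6 with IL-6/IL-23 and 47.7 with TGFβ alone. It exceeded the floor only with IL-6/TGFβ, where it was at least 1.44-fold higher than on either of the other arrays, and entered the comparisons only through that array. Cox8c, the testis form of subunit VIII, read 153 with IL-6/TGFβ, 110 with IL-6/IL-23 and 81.4 with TGFβ alone, all close to the floor, with a log2 ratio of 0.91 for IL-6/TGFβ versus TGFβ. Of the genes grouped with complex I by symbol, Ndufa4l2, a paralog of Ndufa4 known to respond to low oxygen, was below the floor throughout. Ndufb4 was also below it, reading 11.9 with IL-6/TGFβ, 6.36 with IL-6/IL-23 and 16.8 with TGFβ alone on the only probe set that names it alone. Ndufb4 is an accessory subunit of complex I in most tissues, and its other probe sets name several genes and were not used.

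Complex V, the ATP synthase, had 17 measured members with median log2 ratios of 0.13 for IL-6/TGFβ versus TGFβ, -0.00 for IL-6/TGFβ versus IL-6/IL-23 and 0.11 for IL-6/IL-23 versus TGFβ. On the brightest probe sets the catalytic head was nearly level: Atp5a1, the alpha subunit, read 7226 with IL-6/TGFβ, 7743 with IL-6/IL-23 and 6850 with TGFβ alone, and Atp5b, the beta subunit, read 9377 with IL-6/TGFβ, 9136 with IL-6/IL-23 and 10190 with TGFβ alone. Atp5c1, the gamma subunit of the rotating stalk, read 6305 with IL-6/TGFβ, 6312 with IL-6/IL-23 and 7379 with TGFβ alone. Atp5d, the delta subunit of the same stalk, read 5764 with IL-6/TGFβ, 7055 with IL-6/IL-23 and 4366 with TGFβ alone, higher with either IL-6 combination than with TGFβ. Its log2 ratio for IL-6/TGFβ versus TGFβ was 0.40, and for IL-6/IL-23 versus TGFβ its 2 probe sets gave 0.69 and 0.52.

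Atp5k, the membrane subunit e, read 4872 with IL-6/TGFβ, 6857 with IL-6/IL-23 and 4353 with TGFβ alone. All 3 of its probe sets were highest with IL-6/IL-23, with 0.38 to 0.66 for IL-6/IL-23 versus TGFβ and -0.49 to -0.21 for IL-6/TGFβ versus IL-6/IL-23. Atp5l, the membrane subunit g, read 3649 with IL-6/TGFβ, 4284 with IL-6/IL-23 and 3030 with TGFβ alone, the same order on its only probe set. Atp5h, subunit d of the outer stalk, ran the other way: it read 7833 with IL-6/TGFβ, 5273 with IL-6/IL-23 and 6857 with TGFβ alone, with 0.57 and 0.38 on its probe sets for IL-6/TGFβ versus IL-6/IL-23. Atp5pb, subunit b of the outer stalk, read 7153 with IL-6/TGFβ, 8429 with IL-6/IL-23 and 9168 with TGFβ alone, a log2 ratio of -0.36 for IL-6/TGFβ versus TGFβ. Atp5mpl, a small protein of the enzyme's membrane part, read 3394 with IL-6/TGFβ, 4236 with IL-6/IL-23 and 3702 with TGFβ alone. The c ring that protons turn is encoded by 3 genes. Atp5g1 read 2911 with IL-6/TGFβ, 2445 with IL-6/IL-23 and 2721 with TGFβ alone, Atp5g2 4665 with IL-6/TGFβ, 3698 with IL-6/IL-23 and 4204 with TGFβ alone and Atp5g3 9419 with IL-6/TGFβ, 9228 with IL-6/IL-23 and 8492 with TGFβ alone, and on these probe sets all 3 were highest with IL-6/TGFβ by small margins.

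With 1.5-fold in place of 2-fold, a few members were counted in each comparison, and the nearest gene on each side of that line shows how fine it is. The count was 1 higher for IL-6/TGFβ versus TGFβ (Cox8c) and 0 lower, against 7.87% and 6.72% of all genes, and Ndufv3 lay just outside at 1.47-fold. Between IL-6/TGFβ and IL-6/IL-23 it was 2 higher (Ndufs8 and Ndufb10) and 2 lower (Cox8a and Uqcrc1), against 10.1% and 10.8%, with Atp5h just outside at 1.49-fold. For IL-6/IL-23 versus TGFβ it was 5 higher (Cox8a, Atp5d, Atp5k, Ndufaf6 and Uqcrc1) and 0 lower, against 10.3% and 8.82%. Uqcrc1 lay just inside, with a log2 ratio of 0.59 and the line at 0.58. Of these, Cox8a, Atp5d and Atp5k had the same sign on every probe set above the floor in the comparison that counted them, Ndufs8 did not, and Ndufb10, Uqcrc1 and Ndufaf6 have 1 probe set each.

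Other mitochondrial gene groups were read through lists of genes. The citric acid cycle, which supplies NADH and succinate, had 0 of 13 genes past 2-fold in any comparison, with medians of 0.04 for IL-6/TGFβ versus TGFβ, -0.01 for IL-6/TGFβ versus IL-6/IL-23 and -0.01 for IL-6/IL-23 versus TGFβ. Of 76 mitochondrial ribosomal protein genes, which serve translation of the subunits encoded by mitochondrial DNA, 1 was lower for IL-6/TGFβ versus TGFβ (Mrpl33, log2 ratio -1.45) and 0 were past 2-fold in the other comparisons. Their medians were 0.02, -0.17 and 0.17 in the same order, and 54 of 76 (71.1%) were below 0 for IL-6/TGFβ versus IL-6/IL-23, against 53.4% of all genes. Genes of protein import (21 genes, medians -0.07, -0.26 and 0.24) and of coenzyme Q synthesis (11 genes, medians -0.05, -0.36 and 0.30) had none past 2-fold. Among 33 assembly factors outside the symbol rule, none was past 2-fold for IL-6/TGFβ versus TGFβ. For IL-6/TGFβ versus IL-6/IL-23, Cox15, needed for the heme of complex IV, was higher (1.11), and Sco1, a copper chaperone, and Nubpl, an iron-sulphur cluster factor of complex I, were lower (-1.04 and -1.03). For IL-6/IL-23 versus TGFβ, Sco1 was higher (1.19) and Cox15 lower (-1.77). Entry of pyruvate into the mitochondrion had 1 of 10 genes past 2-fold, Pdp1, a phosphatase that activates pyruvate dehydrogenase, lower for IL-6/TGFβ versus IL-6/IL-23 at -1.12. The shares of all genes past 2-fold are those given above beside the members' counts. With no scaling the medians for IL-6/TGFβ versus IL-6/IL-23 were 0.26 for the ribosomal proteins, 0.21 for import and 0.13 for coenzyme Q synthesis. Relative to the median of all genes they were -0.19 to -0.12, -0.25 to -0.21 and -0.33 to -0.28 under the 5 scalings. Some of these scalings keep such offsets nearly fixed by construction, as said for complex III.

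None of 16 regulators of mitochondrial gene expression was past 2-fold. Nrf1, whose motif is marked above, read 232 with IL-6/TGFβ, 392 with IL-6/IL-23 and 277 with TGFβ alone, and Gabpa 710 with IL-6/TGFβ, 962 with IL-6/IL-23 and 842 with TGFβ alone, both highest with IL-6/IL-23. Yy1 read 3227 with IL-6/TGFβ, 3197 with IL-6/IL-23 and 3268 with TGFβ alone and Tfam, which packs and transcribes mitochondrial DNA, 1033 with IL-6/TGFβ, 991 with IL-6/IL-23 and 1185 with TGFβ alone. The coactivator Ppargc1a was below the floor on all 3 arrays. Groups of 6 mitochondrial carriers and 9 antioxidant enzymes likewise had no gene past 2-fold.

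Glycolysis, the other route to ATP, gave larger ratios between arrays than the respiratory chain. The list read here holds transporters as well as enzymes. It lacks the enzymes Gpi1, Gapdh and Eno1, which were matched to no probe set that names 1 gene. For IL-6/IL-23 versus TGFβ the median log2 ratio of the list was 0.64. Of its 17 genes 4 were higher and 0 lower, against 3.53% and 3.37% of all genes and 0 of 84 chain members. These were the glucose transporter Slc2a3 (log2 ratio 2.07), the lactate exporter Slc16a3 (1.22), the enolase Eno2 (at least 2.17-fold, since it was below the floor with TGFβ alone) and the hexokinase Hk2 (1.05). For IL-6/TGFβ versus IL-6/IL-23 the median was -0.41 and Slc2a3 alone was past 2-fold, lower at -2.55. The median was 0.23 for IL-6/TGFβ versus TGFβ, where no gene of 16 was past 2-fold. With no scaling the median for IL-6/IL-23 versus TGFβ was -0.07. Relative to the median of all genes it was 0.58 to 0.81 under the 5 scalings. They counted 1 to 7 genes as higher, against 0.84% to 3.96% of all genes. Some of these scalings keep such an offset nearly fixed by construction. Whether the 2 groups of genes differ was not tested.

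**Figure D5:**
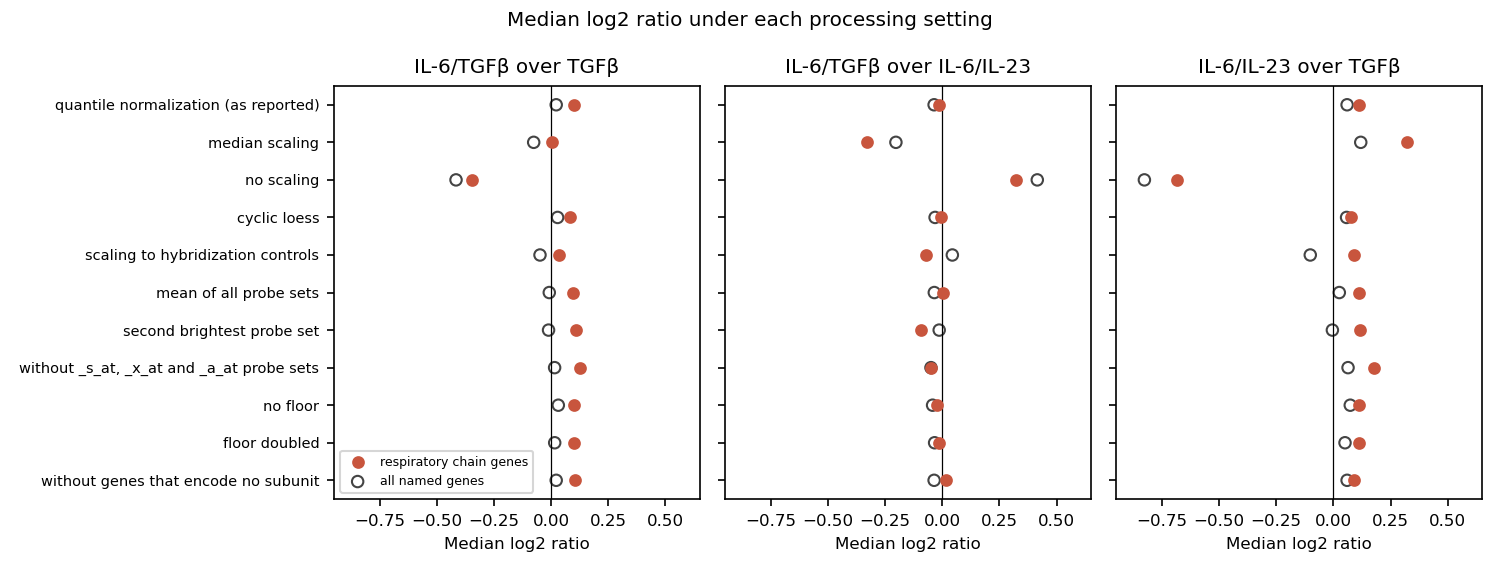
Median log2 ratio of the members under each processing setting, in each of the 3 comparisons, beside that of all measured genes. The settings that change the probe set, the floor or the membership stay near the reported medians of 0.10, -0.01 and 0.11, while leaving out the scaling moves them to -0.35, 0.32 and -0.69.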

How the data were processed

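RNA of 3 samples (10 µg total RNA each) was labelled with biotin and hybridised to Affymetrix mouse arrays, 1 array per condition, per the labels' protocols. The authors deposited 1 intensity per probe set and array on a linear scale. The software, background correction and scaling behind these intensity values were not given in the sources used here. Of 45101 probe sets, 64 controls were left out. GEO's platform annotation named 1 gene for 34945 of the others, several for 932 and none for 9160.

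Log2 intensities were quantile normalized over the 3 arrays (limma 3.58.1 in R 4.3.3) and summarised in Python 3.11.15. As floor served the 95th percentile over 99 probe sets for 56 tissue-restricted genes. Precision is limited by the number of arrays, and no test was made.

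Members, lists and rules were chosen with earlier results of these data known. The promoters printed, the limit for bright genes and the share of all genes past 1.5-fold were chosen after values were seen. The text names the 3 highest and 3 lowest ratios of a complex in comparisons with IL-6/TGFβ, every member below the floor, up to 3 genes per direction of other lists, and further members for their role, chosen after their values were seen. Alternatives covered scaling, the floor, the probe set of a gene, the fold and membership.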

Additional observations from a re-analysis of the deposited data

How the results depend on the processing

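Each of the 3 medians and 6 counts was recomputed under other settings, 96 alternatives in all. Of these, 77 stayed close to the reported value and 19 did not. A median was called close when it moved by less than 0.1 on the log2 scale, and a count when it stayed at 0. That tolerance is as large as the medians themselves. The median for IL-6/TGFβ versus TGFβ, 0.10 as reported and 0.00 with median scaling, was thus called close. The median near 0 for IL-6/TGFβ versus IL-6/IL-23 became 0.00 with the mean of all probe sets and 0.02 without genes that encode no subunit. With median scaling the members' median was -0.33 for IL-6/TGFβ versus IL-6/IL-23 and 0.32 for IL-6/IL-23 versus TGFβ. In the second of these 1 member (Cox8a) was higher, against 3.96% of all genes. With no scaling the medians were -0.35 for IL-6/TGFβ versus TGFβ, 0.32 for IL-6/TGFβ versus IL-6/IL-23 and -0.69 for IL-6/IL-23 versus TGFβ. Then 2 of 85 members were higher in the second (Cox8c and Ndufb10), against 11.7% of all genes. In the last 15 of 85 were lower, against 34.4% of all genes. For IL-6/IL-23 versus TGFβ, the mean of all probe sets gave 1 member higher (Atp5g2, whose dimmer probe sets lie below the floor), against 3.40% of all genes. The second brightest probe set gave 1 lower (Atp5o), against 3.86%. With no floor, 1 was higher for IL-6/TGFβ versus TGFβ, against 11.6% of all genes. For IL-6/TGFβ versus IL-6/IL-23, 2 were then higher and 1 lower, against 12.9% and 13.3%, and for IL-6/IL-23 versus TGFβ 2 higher and 2 lower, against 13.5% and 12.1%. All members counted with no floor were ones that lie below the floor on 2 or more arrays. At 1.5-fold, 1 was higher for IL-6/TGFβ versus TGFβ (7.87% of all genes). Then 2 were higher and 2 lower for IL-6/TGFβ versus IL-6/IL-23 (10.1% and 10.8%), and 5 higher for IL-6/IL-23 versus TGFβ (10.3%). The cause of these changes was not tested beyond the construction of each setting. No paired analysis was possible because each group had 1 array, and none could be left out. Signal over background limits Cox7c, Cox7a1 and Cox8c, which lie close to the floor.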
